A study of Mus musculus with 12 samples.

Results

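The T cell receptor beta chain is assembled in the thymus from 1 TRBV, 1 TRBD and 1 TRBJ gene segment, and the receptors of brain T cells were described here by the TRBV and TRBJ segments they carry. Members were taken by name: every TRBV segment of the assembled beta chains except TRBV29, and every TRBJ segment, with each clone of a pool counted once. This gave 32 segments (20 TRBV and 12 TRBJ) of the 33 that were found. A clone is the set of cells to which the authors assigned the same receptor. Of 10668 clones with a beta chain, 556 carried 2 different beta CDR3 sequences, and the 10112 clones with 1 were used.

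The cells were sorted CD4+, CD8+ and γδ+ T cells from the perfused half-brains of female mice aged 9 months, read as 6 pools with 1 gene expression library and 1 receptor library each. The groups were WT (pool WT-1 of 10 mice and pool WT-2 of 8 mice), 5XFAD (pool 5XFAD-1 of 4 mice and pool 5XFAD-2 of 3 mice), PS19 (4 mice) and PS-5X (4 mice). 5XFAD mice carry familial Alzheimer's disease transgenes and deposit amyloid, PS19 mice make mutant human tau (MAPT) under the prion protein promoter of the mouse, and PS-5X mice carry both hemizygous transgenes. WT animals were littermates with neither transgene. The 5XFAD line was congenic on C57BL6 and the PS19 line was bought as B6C3F1/J, a mixed background. Each pool mixes several mice and is 1 sample. P-values of the tests on numbers of clones reflect the counting error of clones as well as the spread between pools. The permutation tests use the values of the pools only. WT-2 and 5XFAD-2 came from another sequencing run than the other 4 pools. Where values of all 6 pools follow each other, their order is that of the pools named here.

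The TRBV segments encode CDR1 and CDR2, the loops of the receptor that mostly meet the helices of the MHC molecule. The TRBV end, the TRBD segment, added bases and the TRBJ start together encode CDR3, the loop that mostly meets the peptide. CD8 T cells recognise peptides on MHC class I and CD4 T cells on MHC class II, and a clone keeps its beta chain when it divides.

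Clones were given a class from the UMIs (counted molecules) of their cells. A cell was CD8 with 2 or more UMIs of Cd8a plus Cd8b1 and none of Cd4, and CD4 with 1 or more UMIs of Cd4 and none of Cd8a or Cd8b1. By the majority of its cells, 6462 clones were CD8, 2259 were CD4 and 1391 had no class. CD8 clones numbered 346, 1376, 910, 724, 1079 and 2027 in the 6 pools, from WT-1 to PS-5X. CD4 clones numbered 117, 532, 306, 276, 404 and 624. Summed Cd8a and Cd8b1, which the class rule itself uses, lay between 1759 and 2152 CPM (UMIs scaled to the same total in each pool) in CD8 clones and between 1.06 and 6.26 CPM in CD4 clones. The γδ T cell markers (6 of 6 genes detected) summed to 22.6 to 78.3 CPM in CD8 clones and 14.2 to 120 CPM in CD4 clones. B and plasma cell markers summed to 75.4 to 468 CPM in CD8 clones (highest in PS19) and 108 to 203 CPM in CD4 clones. NK cell markers reached at most 69.1 CPM in CD8 and 52.2 CPM in CD4 clones. Microglia and macrophage markers reached at most 99.6 and 84.3 CPM. The part of all these markers in the results was not tested. WT-1 stood apart: it was the smallest pool, and 100 of its 535 clones (18.7%) had both receptor chains identical to a clone of another pool, against 4.15% (5XFAD-1), 2.81% (PS19), 0.194% (PS-5X) and 0 (both pools of the other run). The pools shared 166 cell barcodes, of which 0 had the same beta CDR3 in both.

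The segments whose usage set the classes apart are shown first, because the bases in capitals encode CDR1 and CDR2. They were read from the deposited contigs, 5′ to 3′ on the coding strand, and run from CDR1 through framework 2 to CDR2. The first set was used more by CD8 clones.

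TRBV12-1: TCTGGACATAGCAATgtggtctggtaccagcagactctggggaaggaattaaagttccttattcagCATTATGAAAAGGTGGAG
TRBV12-2: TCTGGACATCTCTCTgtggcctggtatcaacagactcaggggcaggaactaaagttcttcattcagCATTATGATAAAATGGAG
TRBV14: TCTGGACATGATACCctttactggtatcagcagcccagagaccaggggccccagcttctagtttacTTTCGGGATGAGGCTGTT
TRBV17: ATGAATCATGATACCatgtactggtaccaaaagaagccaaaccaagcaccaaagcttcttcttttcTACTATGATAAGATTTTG
TRBV16: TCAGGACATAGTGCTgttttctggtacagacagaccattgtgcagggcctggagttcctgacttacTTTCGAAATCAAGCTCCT

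The second set was used more by CD4 clones.

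TRBV2: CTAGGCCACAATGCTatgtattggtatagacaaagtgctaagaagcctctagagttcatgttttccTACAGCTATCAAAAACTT
TRBV5: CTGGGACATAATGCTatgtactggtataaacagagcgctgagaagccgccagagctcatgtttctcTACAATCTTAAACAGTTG
TRBV20: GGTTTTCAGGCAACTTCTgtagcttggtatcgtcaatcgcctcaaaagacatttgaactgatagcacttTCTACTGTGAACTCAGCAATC
TRBV31: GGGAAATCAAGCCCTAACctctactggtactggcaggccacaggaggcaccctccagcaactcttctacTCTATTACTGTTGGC

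The third set is the TRBV13 family, whose members differ little in sequence but not in the same way between the classes.

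TRBV13-1: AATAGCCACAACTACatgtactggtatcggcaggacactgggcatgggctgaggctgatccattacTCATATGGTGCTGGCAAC
TRBV13-2: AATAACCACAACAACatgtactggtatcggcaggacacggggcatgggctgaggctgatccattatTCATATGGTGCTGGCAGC
TRBV13-3: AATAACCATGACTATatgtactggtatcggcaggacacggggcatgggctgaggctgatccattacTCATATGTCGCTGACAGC

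Over the 270 bases from framework 1 through framework 3, TRBV13-2 and TRBV13-3 were 91.5% identical, TRBV13-1 and TRBV13-2 were 88.1% identical, and TRBV12-1 and TRBV12-2 were 88.1% identical. The printed stretch of TRBV13-2 was the same in 1115 of its 1115 clones, that of TRBV13-3 in 715 of 715 and that of TRBV12-2 in 390 of 390. The TRBV segments lie within 667 kb on chromosome 6, from Trbv1 to Trbv31 (GRCm38.p6, RefSeq annotation). Trbv12-1 (chr6:41113567-41114067), Trbv13-1 (chr6:41116036-41116468), Trbv12-2 (chr6:41118864-41119364), Trbv13-2 (chr6:41121396-41121832) and Trbv13-3 (chr6:41130147-41130585) alternate within 17.0 kb. Trbv31 (chr6:41557693-41558371) lies beyond the TRBJ segments and the constant regions. The contigs named TRBV10 belong to the gene that the expression matrix and RefSeq call Trbv4: 94.4% of cells with such a contig had a Trbv4 UMI and 0% had a Trbv10 UMI.

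CD8 clones drew on many TRBV segments, with mean shares of the members from 0.292% to 9.23%. Across the 6 pools the most used of the members was TRBV13-2 (older name Vbeta8.2) at 9.23% ± 0.812 of CD8 clones (SD, n = 6), followed by TRBV19 (Vbeta6) at 8.25% ± 1.16, TRBV13-3 (Vbeta8.1) at 7.73% ± 0.918, TRBV13-1 (Vbeta8.3) at 6.79% ± 0.588 and TRBV16 at 6.43% ± 0.934. TRBV29, which is no member, lay between TRBV19 and TRBV13-3 at 7.76% ± 0.960. TRBV13-2 ranged from 8.16% in PS19 to 10.4% in 5XFAD-2, and its range overlapped that of TRBV19, which ran from 6.48% in 5XFAD-1 to 9.45% in PS19. The least used members were TRBV23 at 0.292% ± 0.161, TRBV30 at 0.497% ± 0.307 and TRBV26 at 0.963% ± 0.244. CD4 clones leaned on fewer segments: TRBV13-2 made up 13.0% ± 2.26, TRBV5 (Vbeta1) 11.9% ± 1.33, TRBV19 9.90% ± 1.60 and TRBV31 (Vbeta14) 8.93% ± 2.88. The 5 most used TRBV segments of a pool (TRBV29 counted) held 39.0% to 43.4% of its CD8 clones and 48.2% to 57.2% of its CD4 clones. The effective number of TRBV segments, the number of equally used segments that would give the same Shannon entropy (TRBV29 counted), was 16.8 to 17.6 in CD8 clones and 13.8 to 15.2 in CD4 clones and the pools of the classes did not overlap. For TRBJ segments the order was the reverse, at 10.0 to 10.5 in CD8 clones and 10.6 to 11.2 in CD4 clones.

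**Figure D1:**
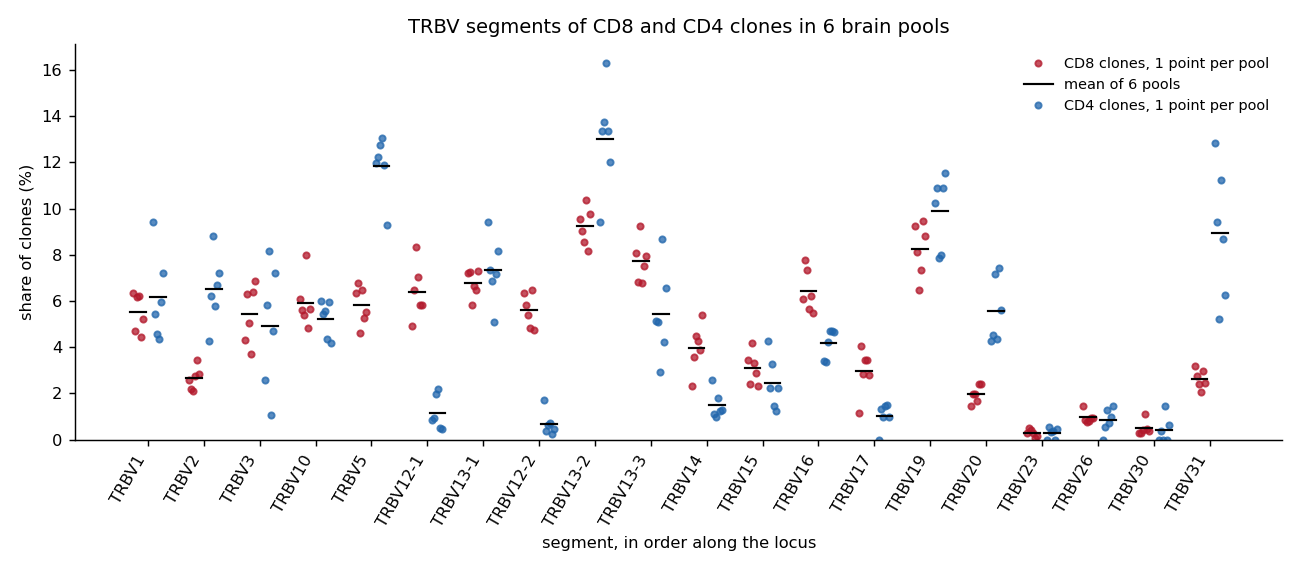
Share of clones (%, vertical axis) with each TRBV segment, in order along the locus (horizontal axis), in CD8 clones (red) and CD4 clones (blue). Each point is 1 pool and each bar the mean of 6 pools: TRBV12-1 and TRBV12-2 lie above in CD8 clones, and TRBV2, TRBV5, TRBV20 and TRBV31 above in CD4 clones, with no overlap between the classes.

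CD8 and CD4 clones of the same pools differed in usage of 17 of the 32 members, 8 higher in CD8 clones and 9 lower (edgeR quasi-likelihood test on numbers of clones, pool as block, Benjamini-Hochberg adjusted p below 0.05). Over all 33 segments tested, TRBV29 included, 54.5% passed, 27.3% in each direction (57.6% at an unadjusted p under 0.05). Without WT-1, 16 segments passed, and with shared receptors left out 18 did. The median log2 difference, CD8 over CD4, was -0.06 over the members and -0.05 over all segments. Of the members that passed, 6 TRBV and 2 TRBJ segments were higher in CD8 clones, and 5 TRBV and 4 TRBJ segments were lower. The shares in the 6 pools did not overlap between the classes for 9 members, and 30.3% of all segments showed this. Shares add up to 100% within TRBV and within TRBJ, so a higher share of 1 segment lowers the others, and the fit treats segments as separate.

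On the log2 scale the 2 members of the TRBV12 family showed the largest differences. In percentage points, averaged over pools, TRBV31 (-6.29) and TRBV5 (-6.02) differed more than TRBV12-1 (5.26) and TRBV12-2 (4.90). TRBV12-2 (Vbeta5.1) was carried by 6.36%, 5.81%, 5.38%, 4.83%, 6.49% and 4.74% of CD8 clones from WT-1 to PS-5X. In CD4 clones it was carried by 1.71%, 0.376%, 0.654%, 0.725%, 0.248% and 0.481%, which is 1 to 3 clones in each pool. Every pool was higher in CD8 clones, by 3.32 ± 0.29 on the log2 scale (SE; edgeR adjusted p = 3.2e-13). TRBV12-1 (Vbeta5.2) was carried by 4.91%, 6.47%, 8.35%, 7.04%, 5.84% and 5.82% of CD8 clones and by 0.855%, 0.940%, 1.96%, 2.17%, 0.495% and 0.481% of CD4 clones. The classes again did not overlap, and the log2 difference was 2.63 ± 0.25 (edgeR adjusted p = 2.2e-12).

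TRBV14 (Vbeta13) and TRBV17 (Vbeta9), which lie further along the locus, were also higher in CD8 clones. TRBV14 ran from 2.31% (WT-1) to 5.38% (PS-5X) in CD8 clones, with a median of 4.09%, and from 0.980% in 5XFAD-1 to 2.56% in WT-1 in CD4 clones. It was higher in CD8 clones in 5 of 6 pools, WT-1 being the exception with 8 CD8 clones and 3 CD4 clones, and the log2 difference was 1.66 ± 0.25 (edgeR adjusted p = 1.2e-07). TRBV17 was carried by 1.16% to 4.07% of CD8 clones and by at most 1.49% of CD4 clones (PS19); WT-1 had 0 of 117, with an upper 95% limit of 3.10%. It was higher in CD8 clones in 6 of 6 pools, by 1.47 ± 0.26 on the log2 scale (edgeR adjusted p = 3.5e-06). TRBV16 was carried by 5.48% to 7.78% of CD8 clones and by 3.38% to 4.71% of CD4 clones, without overlap, with a log2 difference of 0.60 ± 0.18 (edgeR adjusted p = 0.0044). Without WT-2 the TRBV16 difference was 0.43 with adjusted p = 0.0877.

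TRBV31, the segment beyond the constant regions that joins by inversion, was lower in CD8 clones. It was carried by 3.18%, 2.76%, 2.42%, 2.07%, 2.97% and 2.47% of CD8 clones from WT-1 to PS-5X, and by 12.8%, 9.40%, 5.23%, 11.2%, 8.66% and 6.25% of CD4 clones. CD4 clones were higher in every pool and varied more between pools. The log2 difference was -1.65 ± 0.17 (edgeR adjusted p = 2.9e-11). TRBV20 (Vbeta15) was carried by 1.45% to 2.42% of CD8 clones and 4.27% to 7.43% of CD4 clones, a log2 difference of -1.43 ± 0.19 (edgeR adjusted p = 8.2e-09). TRBV2 (Vbeta4) was carried by 2.09% to 3.43% and 4.27% to 8.82%, a difference of -1.34 ± 0.18 (edgeR adjusted p = 1.2e-08). TRBV5 was carried by 4.62% to 6.76% and 9.29% to 13.0%, a difference of -0.999 ± 0.141 (edgeR adjusted p = 3.2e-08). None of these 3 overlapped between the classes.

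The TRBV13 family was split. TRBV13-2 was lower in CD8 clones, by -0.52 ± 0.12 on the log2 scale (edgeR adjusted p = 0.00027), and was lower in 5 of 6 pools, while TRBV13-3 was higher, by 0.49 ± 0.18 (edgeR adjusted p = 0.017), in 5 of 6 pools. TRBV13-1 did not pass: 6.79% ± 0.588 of CD8 clones and 7.34% ± 1.44 of CD4 clones carried it (n = 6 pools), a difference of -0.09 ± 0.15. TRBV13-2 is also known for invariant NKT cells, which pair a fixed alpha chain (TRAV11 with TRAJ18) with a few beta segments. Of 203 clones with that alpha chain, 92 carried TRBV13-2, 30 TRBV13-1, 25 TRBV1 and 12 TRBV13-3, and 71 were CD4, 3 were CD8 and 129 had no class. With these clones left out, TRBV13-2 was still lower in CD8 clones, at -0.38 ± 0.13 (edgeR adjusted p = 0.0117).

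**Figure D2:**
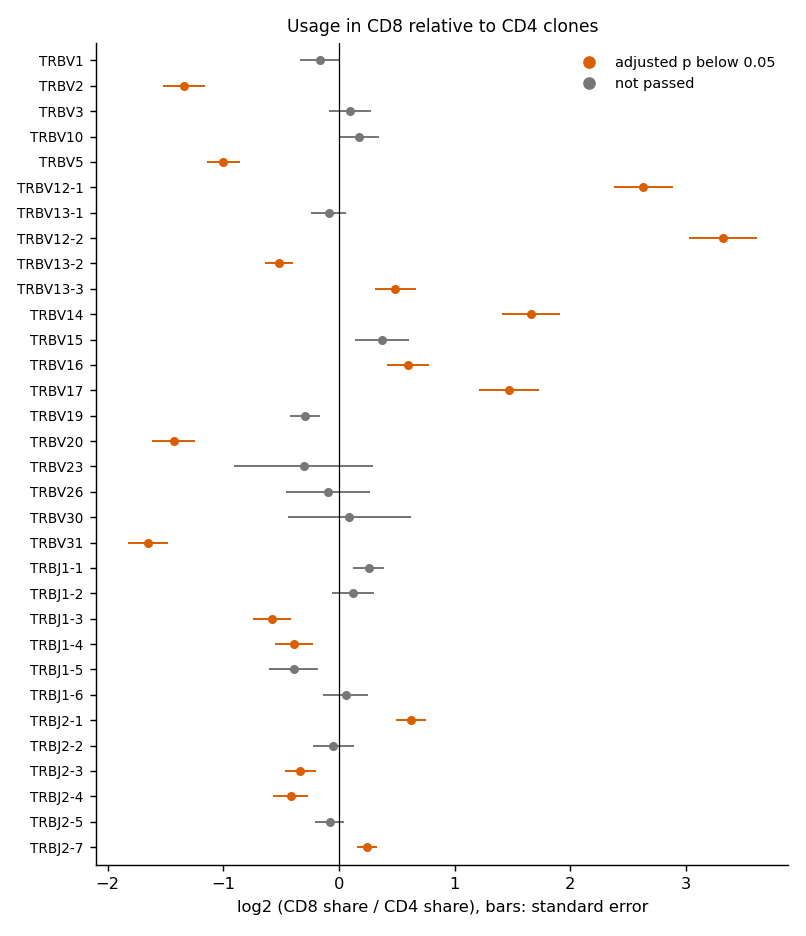
Log2 ratio of the share of CD8 clones to the share of CD4 clones (horizontal axis) for each of the 32 segments, with standard errors from edgeR over 6 pools. Orange points passed an adjusted p of 0.05: TRBV12-2 (3.32) and TRBV12-1 (2.63) lie farthest to the right and TRBV31 (-1.65) farthest to the left, and the TRBJ points lie between -0.58 and 0.62.

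Among the 9 TRBV members that did not pass, TRBV19 came closest, at 8.25% ± 1.16 of CD8 clones and 9.90% ± 1.60 of CD4 clones (n = 6 pools), with a log2 difference of -0.30 ± 0.13 and an edgeR adjusted p of 0.0522. It was lower in CD8 clones in 6 of 6 pools, and it passed in some alternative fits, such as without 5XFAD-1 and with invariant NKT receptors left out. TRBV1, TRBV3, TRBV10 and TRBV15 differed by -0.17 ± 0.17, 0.09 ± 0.18, 0.18 ± 0.17 and 0.37 ± 0.23. TRBV23, TRBV26 and TRBV30 were rare, and with standard errors of 0.60, 0.36 and 0.53 a moderate difference was not detectable at this depth.

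The TRBJ segments differed less. They form 2 clusters, TRBJ1 and TRBJ2, each with a TRBD segment before it and a constant region (TRBC1 or TRBC2) after it. The 6 that passed the test between the classes are shown with the bases of CDR3 in capitals and framework 4 in lower case.

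TRBJ2-1: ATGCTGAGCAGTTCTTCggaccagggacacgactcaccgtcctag
TRBJ2-7: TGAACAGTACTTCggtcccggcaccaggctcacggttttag
TRBJ1-3: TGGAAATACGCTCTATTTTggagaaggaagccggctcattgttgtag
TRBJ1-4: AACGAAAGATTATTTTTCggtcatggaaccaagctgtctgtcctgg
TRBJ2-3: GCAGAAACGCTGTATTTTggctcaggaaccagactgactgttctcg
TRBJ2-4: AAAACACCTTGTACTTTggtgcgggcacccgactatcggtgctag

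TRBJ2-7 was the most used, at 20.3% ± 0.954 of CD8 clones, followed by TRBJ2-1 at 13.6% ± 1.37 and TRBJ1-1 at 11.9% ± 1.19 (SD, n = 6). TRBJ2-1 was carried by 16.2%, 14.03%, 12.4%, 12.8%, 13.3% and 13.0% of CD8 clones from WT-1 to PS-5X, and by 5.13%, 9.02%, 11.4%, 10.1%, 5.94% and 8.97% of CD4 clones. It was higher in CD8 clones in every pool, by 0.62 ± 0.13 on the log2 scale (edgeR adjusted p = 7.6e-05). TRBJ2-7 was higher by 0.24 ± 0.09 (18.7% to 21.1% of CD8 clones against 14.9% to 19.0% of CD4 clones), with edgeR adjusted p = 0.017.

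The 4 TRBJ segments that were lower in CD8 clones belong to both clusters. TRBJ1-3 was carried by 4.80% ± 0.677 of CD8 clones and 7.03% ± 0.881 of CD4 clones, a log2 difference of -0.58 ± 0.16 with edgeR adjusted p = 0.0025. TRBJ2-4 was carried by 5.84% ± 0.884 and 8.05% ± 0.489 without overlap, a log2 difference of -0.42 ± 0.15. TRBJ1-4 and TRBJ2-3 differed by -0.39 ± 0.16 and -0.33 ± 0.14. These 2, with TRBJ2-4, did not pass with DESeq2 or with TMM scaling, and TRBJ2-7 and TRBV13-3 did not pass with DESeq2, which called 12 of the 32 members. The TRBJ2 cluster as a whole held 64.3% ± 1.97 of CD8 clones and 60.4% ± 3.47 of CD4 clones. It was higher in CD8 clones in 5 of 6 pools, and the difference of 3.92 ± 5.20 percentage points (SD) was within the spread (exact sign-flip permutation test over 6 pools, two-sided, p = 0.125; the smallest p it allows is 0.0313). Without WT-1 the difference was 2.18 points.

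**Figure D3:**
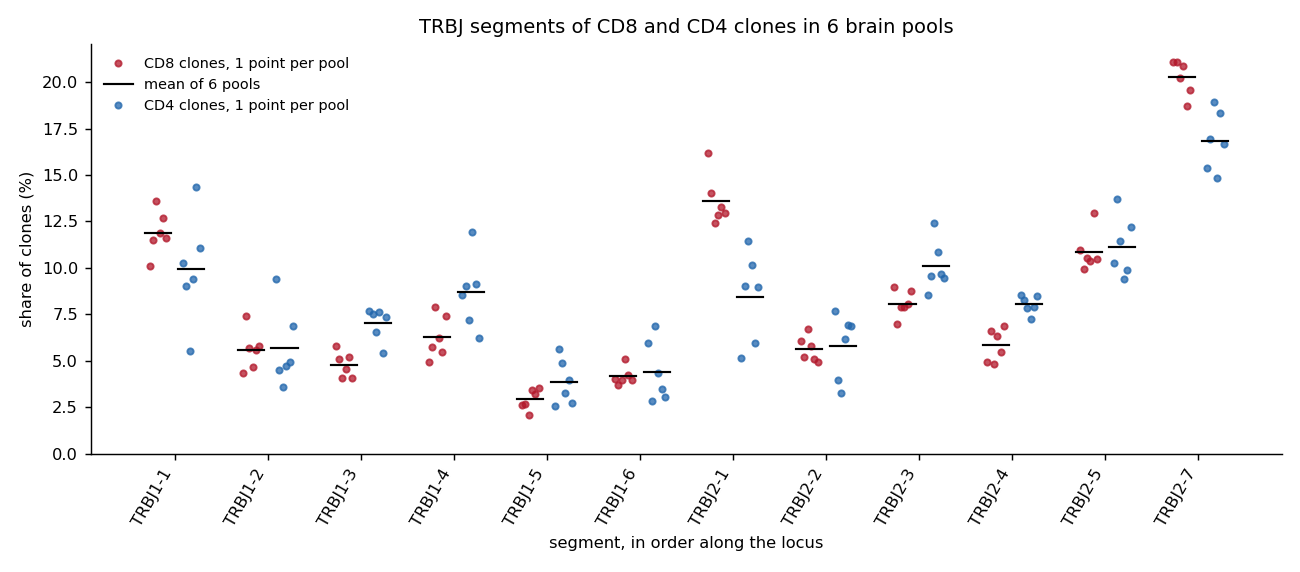
Share of clones (%, vertical axis) with each TRBJ segment, in order along the locus (horizontal axis), in CD8 clones (red) and CD4 clones (blue), 1 point per pool with the mean of 6 pools as a bar. TRBJ2-7 is the most used segment in both classes (20.3% and 16.8%), and TRBJ2-1 is higher in CD8 clones in every pool.

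The classes were also read from cells that had no beta contig, as a second readout. A cell was assigned the TRBV gene with the most UMIs in the expression matrix where that gene had 2 or more UMIs. In cells with a contig this call was the contig's own segment in 98.6% of 11671 cells. In cells without a contig, TRBV12-1 was the call of 21 of 630 CD8 cells (3.33%, 95% Clopper-Pearson interval 2.07 to 5.05) and 0 of 94 CD4 cells (upper limit 3.85). TRBV14 was the call of 25 of 630 CD8 cells (3.97%, interval 2.58 to 5.80) and 0 of 94 CD4 cells, and TRBV31 of 10 CD8 cells (1.59%, interval 0.764 to 2.90) and 7 CD4 cells (7.45%, interval 3.05 to 14.7). TRBV12-1 was higher in CD8 cells in 5 pools and lower in 0, TRBV14 in 4 and 0, and TRBV31 in 1 and 4. TRBV5 made up 0.952% of CD8 cells (interval 0.350 to 2.06) and 5.32% of CD4 cells (1.75 to 12.0), with CD8 cells higher in 1 pool and lower in 3. TRBV2 made up 1.11% (0.448 to 2.28) and 4.26% (1.17 to 10.5), with CD8 cells higher in 2 pools and lower in 2. The intervals of the classes overlapped for TRBV5 and TRBV2, and also for TRBV12-1 and TRBV14, while those of TRBV31 did not. TRBV13-2 went the other way than in clones, at 15.1% of CD8 cells (12.4 to 18.1) and 8.51% of CD4 cells (3.75 to 16.1), and was higher in CD8 cells in 5 of 6 pools. The shares of TRBV20 (2.22% and 2.13%) and TRBV12-2 (3.02% and 2.13%) lay close together. Calls of Trbv13-2 and Trbv12-2 are less certain than the others. Their UMIs were found in 12.1% and 9.08% of cells whose contig carries another segment, against at most 2.40% (Trbv16) for the other genes. How far such UMIs enter the calls of cells without a contig was not tested. The intervals cover counting error only and treat cells as independent, although cells of the same clone were not joined. Of the 94 CD4 cells, 47 came from PS-5X, and of the 630 CD8 cells, 302 did.

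Clones with 2 or more cells found in a pool (expanded) were compared with clones of 1 cell (singletons) to see whether clone size went with a segment. Where the cells of a clone divided was not measured. No member passed among the 692 expanded and 5770 singleton CD8 clones, and 0.0% of the 33 segments did (edgeR, pool as block). None had an unadjusted p under 0.05 with edgeR, and DESeq2 called 0. The log2 differences of the members ran from -0.74 to 0.74 with a median standard error of 0.26, so the 95% interval of a typical member reaches 1.43-fold either way. The number of expanded clones ran from 26 in WT-1 to 268 in PS-5X. Without WT-1, or with shared receptors left out, the count of segments was also 0 here and in the comparisons of amyloid, tau and 5XFAD with WT.

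The smallest p among members belonged to TRBJ1-4, which was used less by expanded clones in 6 of 6 pools. It was carried by 0 of 26 expanded CD8 clones of WT-1 (upper 95% limit 13.2%) and by 4.92%, 6.60%, 3.57%, 3.49% and 5.60% of those of the next pools, against 5.31%, 5.82%, 8.08%, 6.56%, 5.64% and 7.67% of singletons. The ranges overlapped, and the log2 difference of -0.50 ± 0.26 did not pass (edgeR adjusted p = 0.956). TRBV12-1 (-0.39 ± 0.26) and TRBJ2-4 (-0.33 ± 0.26) came next, with the same adjusted p. TRBV12-1 was carried by 4.54% ± 3.52 of expanded and 6.58% ± 0.975 of singleton CD8 clones (n = 6 pools), and TRBJ2-4 by 6.01% ± 4.76 and 5.88% ± 1.18, where WT-1 (15.4% of its 26 expanded clones) stood above the 2.83% to 6.34% of the other pools. With singleton clones alone, 16 segments differed between CD8 and CD4, all of them among the 18 found with every clone.

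Whether the contrast of expanded and singleton clones differed with amyloid was tested as an interaction, and no member passed (edgeR; 0.0% of 33 segments, with 2 or 6.06% at an unadjusted p under 0.05; DESeq2 called 0, with 1). These 2 were TRBV31 and TRBV20. TRBV20 was carried by 12 of 268 expanded CD8 clones of PS-5X, 4 of 106 of 5XFAD-1 and 2 of 84 of 5XFAD-2, and by 1 of 86 of PS19, 1 of 122 of WT-2 and 0 of 26 of WT-1. Its share was higher in expanded than in singleton clones in the 3 pools with amyloid and lower in the 3 without (edgeR adjusted p = 0.167). TRBV31 was carried by 6 (PS-5X), 4 (5XFAD-1) and 2 (5XFAD-2) expanded clones with amyloid and by 1 (PS19), 0 (WT-2) and 0 (WT-1) without (edgeR adjusted p = 0.167). With so few clones the fitted ratio depends on the prior count and is not given.

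The largest CD8 clones of the pools carried 5 different TRBV segments, since those of WT-1 and 5XFAD-1 had the same chain. CDR3 of the largest CD8 clone of each pool among members is shown, with the bases in capitals that match neither the TRBV end nor the TRBJ start (the bases that at least 80% of a segment's clones share).

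WT-1: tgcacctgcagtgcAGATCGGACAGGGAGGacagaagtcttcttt
WT-2: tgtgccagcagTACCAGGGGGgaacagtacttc
5XFAD-1: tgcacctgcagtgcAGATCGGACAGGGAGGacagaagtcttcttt
5XFAD-2: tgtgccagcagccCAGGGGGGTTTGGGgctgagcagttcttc
PS19: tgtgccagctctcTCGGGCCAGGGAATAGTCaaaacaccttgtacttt
PS-5X: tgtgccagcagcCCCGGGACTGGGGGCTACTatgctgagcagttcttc

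They were TRBV1 with TRBJ1-1 in WT-1 (12 cells) and, with the same sequence and a matching alpha chain, in 5XFAD-1 (100 cells). WT-2 had TRBV19 with TRBJ2-7 (50 cells), 5XFAD-2 had TRBV5 with TRBJ2-1 (56 cells), PS19 had TRBV12-2 with TRBJ2-4 (24 cells) and PS-5X had TRBV10 with TRBJ2-1 (110 cells). The clones of PS19 and PS-5X also matched a clone of another pool in both chains, and those of WT-2 and 5XFAD-2 did not. In 5XFAD-1 the largest CD4 clones were TRBV5 clones of 53 and 29 cells, 12.0% and 6.58% of its CD4 cells with a beta chain. These CD4 clones, too, matched a clone of another pool in both chains. Counting cells in place of clones lets such clones weigh on a pool, and 10 segments then differed between the classes, all among the 18.

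For amyloid, both pools of 5XFAD and that of PS-5X were set against the pools of WT and PS19, and the fit held tau as another term. No member passed in CD8 clones (edgeR; 0.0% of 33 segments, with 2 or 6.06% at an unadjusted p under 0.05; DESeq2 called 0, with 0). The log2 differences of the members ran from -0.32 to 0.66, with a median standard error of 0.18, which puts the 95% interval of a typical member at 1.27-fold either way. The shares of the 3 pools on each side did not overlap for TRBV12-2, TRBV14, TRBV31, TRBJ1-3, TRBJ1-4 and TRBJ2-1, which is 6 of 33 segments (18.2%).

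The first of these was TRBV14, at 5.38% (PS-5X), 4.51% (5XFAD-1) and 4.28% (5XFAD-2) of CD8 clones with amyloid and at 3.89% (PS19), 3.56% (WT-2) and 2.31% (WT-1) without. The pools with amyloid were higher, by 0.44 ± 0.18 on the log2 scale (edgeR adjusted p = 0.434), by 1.84 percentage points among the 4 pools of the common run and 0.721 between the 2 pools of the separate run. TRBJ1-4 was carried by 7.91% (5XFAD-1), 6.22% (5XFAD-2) and 7.40% (PS-5X) with amyloid and by 4.91% (WT-1), 5.74% (WT-2) and 5.47% (PS19) without. The difference of 0.39 ± 0.17 (edgeR adjusted p = 0.434) came to 2.47 points in the common run and 0.474 in the separate run. TRBV12-2 was lower with amyloid, at 5.38%, 4.83% and 4.74% against 6.36%, 5.81% and 6.49% (pools in the order given for TRBJ1-4). The difference was -0.32 ± 0.18 (edgeR adjusted p = 0.672), or -1.36 and -0.980 points in the 2 runs. The differences within the common and the separate run were -0.630 and -0.690 points for TRBV31, -1.40 and -0.529 for TRBJ1-3 and -2.02 and -1.18 for TRBJ2-1. These segments were named because their pools did not overlap, which fixes the sign within each run, so it is no sign of stability. The separate run holds 1 pool on each side, so its values carry no test.

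**Figure D4:**
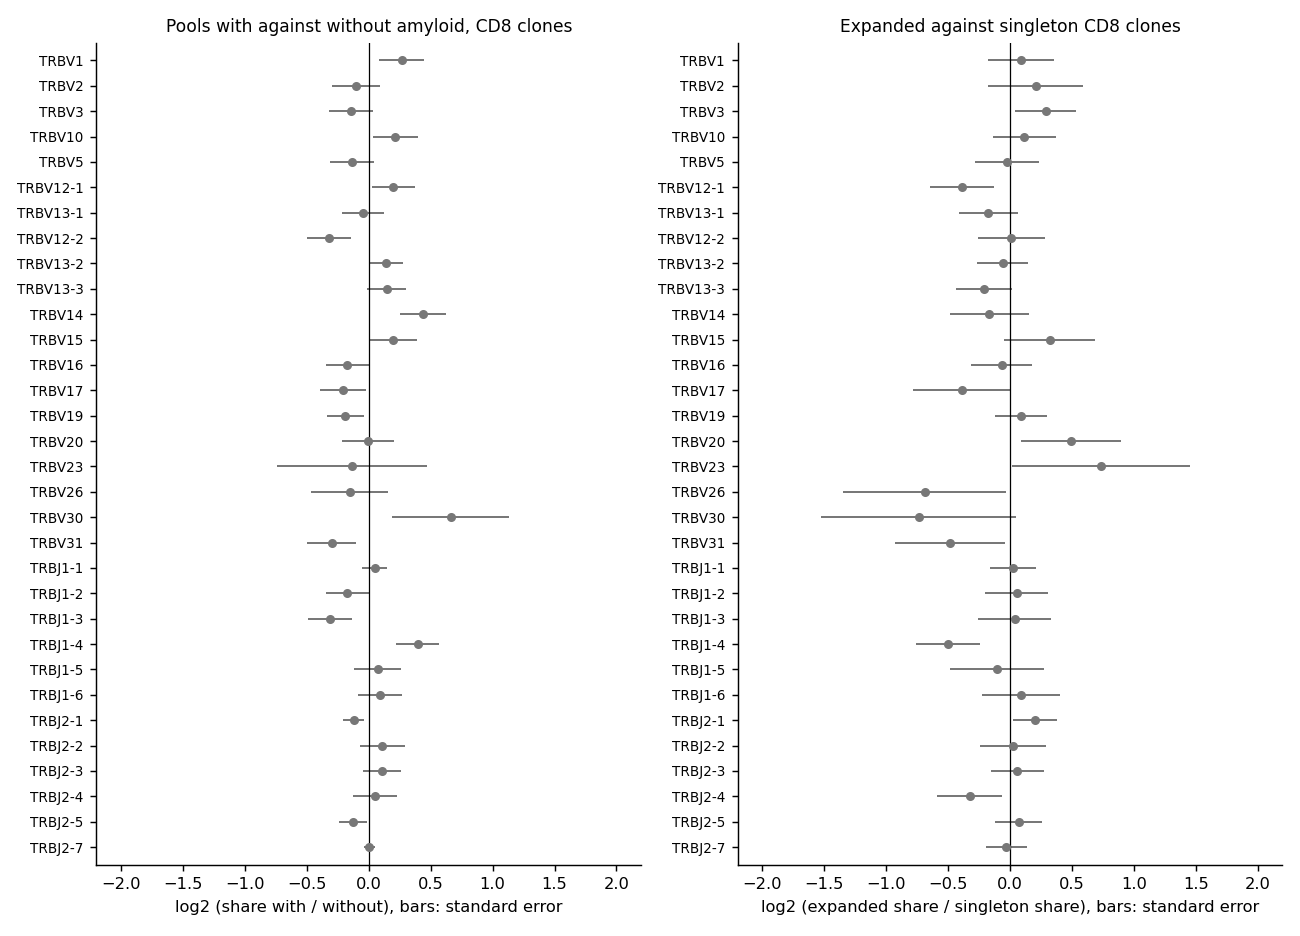
Log2 ratios (horizontal axes) with standard errors for each segment: share in CD8 clones of the 3 pools with amyloid over the 3 without (left), and share in expanded over singleton CD8 clones of the 6 pools (right). No point passed an adjusted p of 0.05; TRBV14 (0.44) and TRBJ1-4 (0.39) have the smallest p on the left, and TRBJ1-4 (-0.50) on the right. Standard errors were derived from the test statistic. Those of several segments, such as TRBJ2-1, TRBJ2-7 and TRBV31 on the left, are too small for their p-values.

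In CD4 clones no member differed with amyloid (edgeR; 0.0% of 32 segments, with 0 at an unadjusted p under 0.05; DESeq2 called 0), and 0 of 33 segments had shares that did not overlap. TRBJ2-1 had the smallest p, at 8.97% (PS-5X), 11.4% (5XFAD-1) and 10.1% (5XFAD-2) of CD4 clones against 5.94% (PS19), 9.02% (WT-2) and 5.13% (WT-1), a difference of 0.48 ± 0.26 (edgeR adjusted p = 0.944). TRBV30 and TRBJ1-1 (-0.35 ± 0.23) followed. TRBV30 was carried by 0 (5XFAD-1), 4 (5XFAD-2) and 4 (PS-5X) clones with amyloid and by 0 (WT-1), 2 (WT-2) and 0 (PS19) without. The median standard error was 0.33, so a difference had to be larger than in CD8 clones to be detectable.

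Tau was compared in the same fit, and no member passed in CD8 clones (edgeR; 0.0% of 33 segments, with 2 or 6.06% at an unadjusted p under 0.05; DESeq2 called 0, with 0). TRBV23 was carried by 3 of 2027 CD8 clones of PS-5X and 1 of 1079 of PS19, and by 1, 7, 4 and 2 clones of the pools without tau, a log2 difference of -1.59 ± 0.66 (edgeR adjusted p = 0.449). TRBV3 was carried by 6.86% (PS-5X) and 6.39% (PS19) against 3.73% to 6.32% without tau, a difference of 0.38 ± 0.18 (edgeR adjusted p = 0.449), and TRBV2 by 2.86% and 3.43% against 2.09% to 2.76%. In CD4 clones no member passed either (edgeR; 0.0% of 32 segments, with 2 or 6.25% at an unadjusted p under 0.05; DESeq2 called 0, with 0). TRBJ1-1 was carried by 11.1% (PS-5X) and 14.4% (PS19) of CD4 clones against 9.42% (5XFAD-2), 5.56% (5XFAD-1), 9.02% (WT-2) and 10.3% (WT-1), a difference of 0.60 ± 0.23 (edgeR adjusted p = 0.355). Without 5XFAD-2 it was 0.75 with adjusted p = 0.0374. TRBV12-1 was carried by 3 CD4 clones of PS-5X and 2 of PS19 against 6, 6, 5 and 1 of the pools without tau (-1.62 ± 0.73), and TRBJ2-2 by 6.89% and 6.93% against 3.27% to 7.69%.

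5XFAD alone against WT gave no call in CD8 clones (edgeR; 0.0% of 33 segments, with 0 at an unadjusted p under 0.05; DESeq2 called 0). This comparison shares its pools with the comparison of amyloid. TRBV30 was carried by 4 and 8 clones in 5XFAD-1 and 5XFAD-2 and by 1 and 4 in WT-1 and WT-2 (edgeR adjusted p = 0.595). TRBV15 was carried by 4.18% and 3.31% against 3.47% and 2.40% (0.53 ± 0.30), and TRBJ2-1 by 12.4% and 12.8% against 16.2% and 14.03% (-0.20, edgeR unadjusted p = 0.145). The standard error of TRBJ2-1 is not given, since the one derived from the test statistic was too small for this p-value.

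The length of the beta CDR3, counted in amino acids from its first cysteine to its last residue, varied more between segments than between classes. It was 14 in 30.7% of clones, 15 in 22.4% and 13 in 18.3%. By pool, CD8 clones averaged 13.9 ± 0.037 (SD, n = 6) and CD4 clones 13.9 ± 0.156, a difference of 0.053 ± 0.174 (exact sign-flip permutation test over 6 pools, two-sided, p = 0.469). With each pool left out it lay between 0.0119 (without PS19) and 0.0939 (without 5XFAD-1). Expanded CD8 clones averaged 14.02 ± 0.266 and singletons 13.9 ± 0.032, a difference of 0.099 ± 0.269 (exact sign-flip permutation test, two-sided, p = 0.5). Expanded clones were longer in 2 of 6 pools, and the difference was 0.00932 without WT-1 and 0.0569 without PS19. CD8 clones of pools with amyloid averaged 13.9 ± 0.052 (n = 3) and those without 13.9 ± 0.026 (n = 3), a difference of -0.0035 (exact permutation test, two-sided, p = 1.0, where 0.1 is the smallest p that 3 against 3 pools allow), or 0.0132 among the 4 pools of the common run and -0.0367 between the other 2. By segment, the mean length ran from 12.7 for TRBV30 and 13.1 for TRBV20 to 14.5 for TRBV2 and TRBV5, and from 13.2 for TRBJ2-7 and 13.3 for TRBJ1-1 to 14.5 for TRBJ2-3 and 14.6 for TRBJ2-2. TRBJ2-7 and TRBJ2-3 stayed apart in every pool, at 13.1 to 13.3 and 14.4 to 14.7. TRBJ2-7, shown above, brings the fewest CDR3 bases of the TRBJ segments printed.

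The share of TRBJ2 segments did not differ between expanded and singleton CD8 clones beyond the spread, at 66.8% ± 9.17 and 64.1% ± 1.57 (n = 6; exact sign-flip permutation test, two-sided, p = 0.594). WT-1 had 84.6% of its 26 expanded clones in the TRBJ2 cluster, the other pools 58.3% to 66.8%. Without WT-1 the difference was -0.37 percentage points in place of 2.65, and without 5XFAD-2 it was 4.48.

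Where a constant region was named, the TRBJ and TRBC segments of a chain came from the same cluster. TRBJ1 segments were carried by 3737 clones (37.0%), of which 0 had TRBC2 and 3701 had TRBC1, and TRBJ2 segments by 6375 clones (63.0%), of which 0 had TRBC1 and 6362 had TRBC2. Where a TRBD segment was named, TRBD2 was 8 of 754 with TRBJ1 (1.06%) and 44.3% with TRBJ2. The TRBD was left unnamed in 79.8% and 75.8% of these clones.

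The number of clones with each pair of a TRBV and a TRBJ segment was set against the product of their shares within pools. Of 240 pairs of members, 25 lay below the product in all 6 pools and 6 above it in all 6. A pair with 0 clones lies below in every pool whatever its product, as 9 rare pairs did. A pair with fewer clones than pools has none in some pools and lies below there for the same reason. Among the 129 pairs where the product gives 30 or more clones in all, the observed number lay between 0.468 and 1.70 times it. Of these, 5 lay below it in all 6 pools: TRBV5 with TRBJ1-2 (21 clones where the product gives 44.9), TRBV1 with TRBJ1-2 (21 and 34.2), TRBV20 with TRBJ2-5 (23 and 36.5), TRBV31 with TRBJ2-5 (37 and 49.5) and TRBV3 with TRBJ1-1 (55 and 67.3). The 3 above it in all 6 pools were TRBV12-1 with TRBJ2-1 (79 and 55.5), TRBV1 with TRBJ1-1 (89 and 64.6) and TRBV16 with TRBJ2-5 (85 and 64.4). Pairs with a smaller product held larger departures. The other 3 above it in all 6 pools were TRBV12-1 with TRBJ1-2 (49 and 27.9), TRBV12-2 with TRBJ2-2 (38 and 21.5) and TRBV26 with TRBJ2-7 (25 and 18.8). TRBJ1-6, among others, was below it in all 6 pools with TRBV16 (5 and 23.5), TRBV3 (9 and 24.0), TRBV12-2 (5 and 15.9), TRBV15 (2 and 10.8) and TRBV17 (2 and 10.8), as was TRBJ1-2 with TRBV15 (3 and 15.3). These pairs were named after their values were seen and carry no test. TRBV12-1 and TRBJ2-1 were both used more by CD8 clones.

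One TRBJ segment came in 2 forms. TRBJ1-5 framework 4, from its first base, was read as follows, with the differing base in capitals.

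TRBJ1-5 form 1: ggagaggggactcgactTtctgttctag
TRBJ1-5 form 2: ggagaggggactcgactCtctgttctag

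The difference is T18C, counted from the first base of framework 4 (form 1 first). Form 1 was found in 229 clones and form 2 in 109, and no other member had a second form in 10 or more clones over the stretches compared. Of the TRBJ1-5 clones of WT-1, form 2 made up 7 of 13 (53.8%, 95% Clopper-Pearson interval 25.1 to 80.8), and of those of WT-2 13 of 77 (16.9%, 9.31 to 27.1). Of those of 5XFAD-1 it made up 6 of 38 (15.8%, 6.02 to 31.3), and of those of 5XFAD-2 29 of 47 (61.7%, 46.4 to 75.5). Of the PS19 clones it made up 30 of 60 (50.0%, 36.8 to 63.2) and of the PS-5X clones 24 of 103 (23.3%, 15.5 to 32.7). The intervals of the 2 pools of 5XFAD did not overlap, while those of the 2 pools of WT did. High and low shares both occurred with and without amyloid, with and without tau and in each run. A cause was not tested. TRBJ1-5 was used by 2.09% to 3.55% of CD8 clones and was not called in the main fit of any comparison above.

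Some beta chains were found in several pools in clones that were not matched in both chains. Clones without an alpha contig could not be matched and stayed in, so their alpha chains may or may not differ. After leaving out clones that matched in both chains, 140 of 9031 combinations of TRBV, TRBJ and CDR3 amino acids occurred in 2 or more pools and 6 in 3 or more. They covered 4.43% of CD8 clones and 3.14% of CD4 clones, with a mean CDR3 length of 13.6 against 13.9 over all clones considered. By segment, the share of clones with such a chain was highest for TRBJ1-6 (9.60%), TRBV17 (9.09%) and TRBV15 (8.63%), and it was 0 for the rare TRBV23 and TRBV30. Compared by TRBV and CDR3 nucleotides in place of amino acids, 52 chains occurred in 2 or more pools.

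Transcripts of unused segments were read in the expression matrix, where each cell's own segment is known from its contig. A UMI of the cell's own TRBV gene was found in 97.8% to 100% of cells for the members other than TRBV10 (94.4%, Trbv4) and TRBV5 (83.4%). Trbv13-2 UMIs were found in cells that use another segment, and more often in cells of the 7 segments that follow it, from Trbv13-3 to Trbv20, than in the rest. They were found in 45.3% of TRBV14 cells, 41.4% of TRBV13-3 cells, 24.3% of TRBV16 cells, 23.8% of TRBV17 cells, 19.5% of TRBV15 cells and 16.4% of TRBV19 and TRBV20 cells. In the 8 segments that precede it they were found in 3.91% to 7.58% of cells, and in the 4 members that follow from Trbv23 on in 0 to 4.18%. By pool, the 7 following segments together lay between 21.6% and 32.4%, the 8 preceding ones between 3.00% and 6.27% and the 4 distant ones between 0.971% and 5.62%, and the range of the 7 did not overlap the others. Median UMIs per cell were close in the 3 sets (6146, 6220 and 6158). A mean of 1.27 to 1.82 Trbv13-2 UMIs was seen in those cells of the 7 segments that had any, against 7.97 in TRBV13-2 cells. TRBV13-3 is 91.5% identical to TRBV13-2, so reads of one may be counted for the other. Trbv12-2, which lies just before Trbv13-2, showed the same order: its UMIs were found in 37.4% of TRBV13-2 cells, 6.85% to 19.3% of cells of the 7 following segments and 2.01% to 4.33% of cells of the 7 that precede it. The grouping was made after the values were seen, and the cause was not tested.

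**Figure D5:**
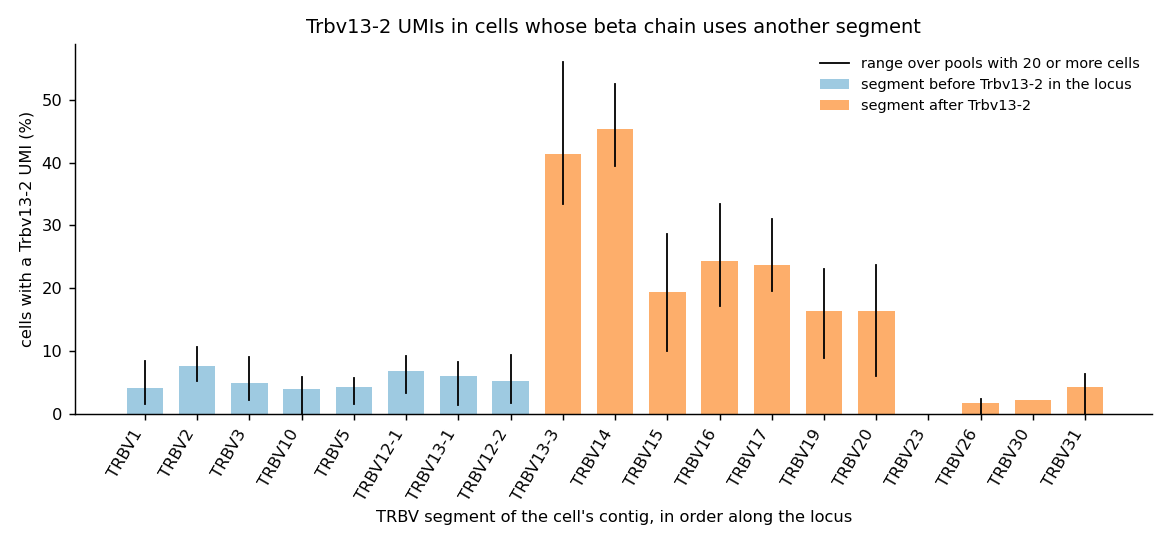
Percent of cells with 1 or more Trbv13-2 UMIs (vertical axis) among cells whose contig carries another TRBV segment, in order along the locus (horizontal axis). Bars pool all cells and lines show the range over pools with 20 or more such cells: the 7 segments from TRBV13-3 to TRBV20 lie between 16.4% and 45.3%, and the 8 before Trbv13-2 between 3.91% and 7.58%.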

How the data were processed

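Sorted brain T cells were read as 6 pools. Per the submitters' processing notes, Cell Ranger 6.0.1 was used, and the builds GRCm38 and mm10 are named there without a role. The deposited values are UMI counts, per gene and barcode in the matrix and per contig in the receptor table, per the file headers. Barcodes under 500 genes or over 10% mitochondrial UMIs were dropped (17962 of 18374 stayed). Clones were the authors' clonotypes. The joined contig name TRBV12-2+TRBV13-2 was read as TRBV13-2. The stretches from framework 1 through framework 3, CDR1 and CDR2 included, of its 1380 contigs equal those of the 235 contigs named TRBV13-2. Numbers of clones per segment were tested with edgeR 4.0.16 in R 4.3.3 (library size equal to the number of clones, segments with 10 or more clones, Benjamini-Hochberg over all TRBV and TRBJ segments together, TRBV29 included). The fitted variation between pools beyond counting error was 8.66% for CD8 against CD4 clones and 6.18% for expanded against singleton CD8 clones. In the comparisons of amyloid, tau and 5XFAD it was 0.988% in CD8 clones, so those p-values rest mostly on counting error. For amyloid and tau in CD4 clones it was 9.80%. On simulated counts of the comparison of CD8 with CD4 clones (33 segments, 50 draws), 96% of 0.5-fold, 100% of 2-fold and 100% of 4-fold changes were called, and 1.56% of unchanged segments. Changes were placed only in segments with many clones, so these rates do not cover the rare TRBV23, TRBV26 and TRBV30. Counts were drawn for each segment separately, without the tie that real shares have by adding up to 100%. Named segments were the 10 that passed with the largest difference, or the 3 with the smallest p, and the 5 most used TRBV and 3 most used TRBJ. Standard errors were derived from the test statistic of edgeR. They come out too small for the p-values of several segments. Examples in CD8 clones are TRBJ2-1 and TRBJ2-7 in the genotype comparisons, TRBV31 for amyloid, and TRBV2 and TRBV23 for tau. Between the classes, pool was the block. Replicate numbers of WT and 5XFAD mark the sequencing run per the labels, which is where the replicate block of the genotype comparisons comes from. Alternatives were DESeq2 1.42.0, TMM, no filter, each pool left out, shared receptors left out, every beta chain, a class rule by share of coreceptor UMIs, doublets left out (Scrublet in scanpy 1.11.5) and cells as the unit. Members, lists and comparisons were chosen with earlier results of these data known.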

Additional observations from a re-analysis of the deposited data

Results flagged for a closer look

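In 5 of 64 sets of 6 pools (each member's difference in share between CD8 and CD4 clones, or between expanded and singleton CD8 clones), 1 pool lay far from the other 5, where chance flags about 1 in 20 sets. All 5 concern expanded minus singleton CD8 clones. WT-1, with 26 expanded clones, was apart for TRBV5 (-6.88 percentage points, the other pools -0.778 to 2.48), TRBJ2-3 (6.95, others -0.603 to 1.72) and TRBJ2-4 (11.3, others -3.66 to -0.593). WT-2 was apart for TRBV17 (1.83, others -1.52 to -1.10), and 5XFAD-2 for TRBJ1-5 (5.52, others -2.81 to -0.252). TRBV20 moved in opposite directions: expanded minus singleton CD8 clones averaged 1.74 points in the 3 pools with amyloid and -1.39 in the 3 without, a gap of 3.13 points, and the interaction did not pass (edgeR adjusted p = 0.167).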

How the results depend on the processing

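The number of segments that differed between CD8 and CD4 clones was 18 and lay between 13 and 20 under every alternative but one: counted in cells it was 10. Leaving out each pool gave 14 to 18, and without the pool as replicate block it was 20. The 18 include TRBV29. Of the 10 named members, 9 kept direction and call under all 18 alternatives, and TRBV16 did not pass without WT-2 or with cells as the unit. Amyloid and tau in CD8 and CD4 clones, and 5XFAD against WT in CD8 clones, gave 0 segments, and with the run as replicate block also 0, so the block changed no call. The exception among all alternatives was tau in CD4 clones, where 1 segment (TRBJ1-1) passed without 5XFAD-2. The difference in CDR3 length between pools with and without amyloid changed sign, at 0.0133 without shared receptors, 0.00772 with the other class rule and between -0.0257 and 0.0251 with each pool left out. The difference in TRBJ2 share between expanded and singleton clones reversed without WT-1 (-0.370 points; range with each pool left out -0.370 to 4.48). The cause was not tested. When a pool was left out, TRBV13-3, TRBV16, TRBJ1-4, TRBJ2-3, TRBJ2-4 or TRBJ2-7 lost its call between the classes. Calls were also gained. TRBV19 passed without 5XFAD-1, without the pool as block and with every beta chain. It also passed with the other class rule, with doublets left out and with invariant NKT receptors left out. TRBJ1-1 passed without PS19 and without the pool as block, and TRBJ1-5 without PS-5X and with every beta chain. Singleton clones alone (16 segments), invariant NKT receptors left out (19) and V names as deposited (18) were tried after the data were seen. Rare segments (TRBV23, TRBV26, TRBV30) and the 26 expanded clones of WT-1 limit the precision, and CD4 clones are fewer than CD8 clones in every pool.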
